A study of Mus musculus with 6 samples.

Results

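The genes described here carry out the upkeep, writing, erasure and reading of DNA methylation: Uhrf1, Hells, Cdca7 and Dnmt1 (maintenance), Dnmt3a and Dnmt3b (writing), Tet1, Tet2 and Tet3 (erasure) and Mbd2 (reading). They were taken as the rows of the deposited expression table whose symbol equals 1 of these 10 names. All 10 were found among 38926 symbols and all 10 passed the filter on low values. RNA was sequenced in bulk from LSK cells, the lineage-negative, Sca1-positive, cKit-positive fraction of bone marrow that holds haematopoietic stem cells and multipotent progenitors, of C57BL/6 mice aged 8 to 12 weeks. One group of 3 libraries was labelled wild type (WT) and the other 3 were labelled as a double knockout of the dopamine receptor genes Drd2 and Drd3 (KO). No mice were treated, and which parts of Drd2 and Drd3 the knockout alleles lack, and in which cells, was not stated in the labels used here.

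When a replication fork passes a methylated CpG, the new strand lacks the methyl group. UHRF1 binds such hemimethylated sites and recruits DNMT1, which copies the mark, while the chromatin remodeller HELLS and its activator CDCA7 open nucleosomes for this machinery. DNMT3A and DNMT3B place methyl groups on unmethylated DNA, TET enzymes oxidise 5-methylcytosine as a step to its removal, and MBD2 binds methylated CpG and brings in a repressor complex. In blood, DNMT3A and TET2 are known as genes whose mutation lets stem cell clones expand.

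The genes of maintenance were lower in the libraries labelled KO, and the de novo enzyme Dnmt3b was at a like level in both groups. Uhrf1 fell 2.22-fold, Dnmt1 2.07-fold, Hells 1.75-fold and Cdca7 1.29-fold as ratios of mean FPKM, and each passed limma's test. None of the other 6 members passed. The share of all 11371 tested genes called was 10.9%, of which 5.43% of the tested genes were lower and 5.48% higher, against 4 of 10 members lower and 0 higher. At an unadjusted limma p under 0.05, 6 members were lower and 0 higher, and limma's voom on reads recovered from the FPKM values called 5 lower and 0 higher. The median difference over the 10 members was -0.37 on the log2(FPKM + 1) scale, against -0.002 over all tested genes. The groups did not overlap in 7 members that were lower in KO and 1 that was higher, where 16.6% and 16.2% of tested genes were apart in these directions.

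**Figure D1:**
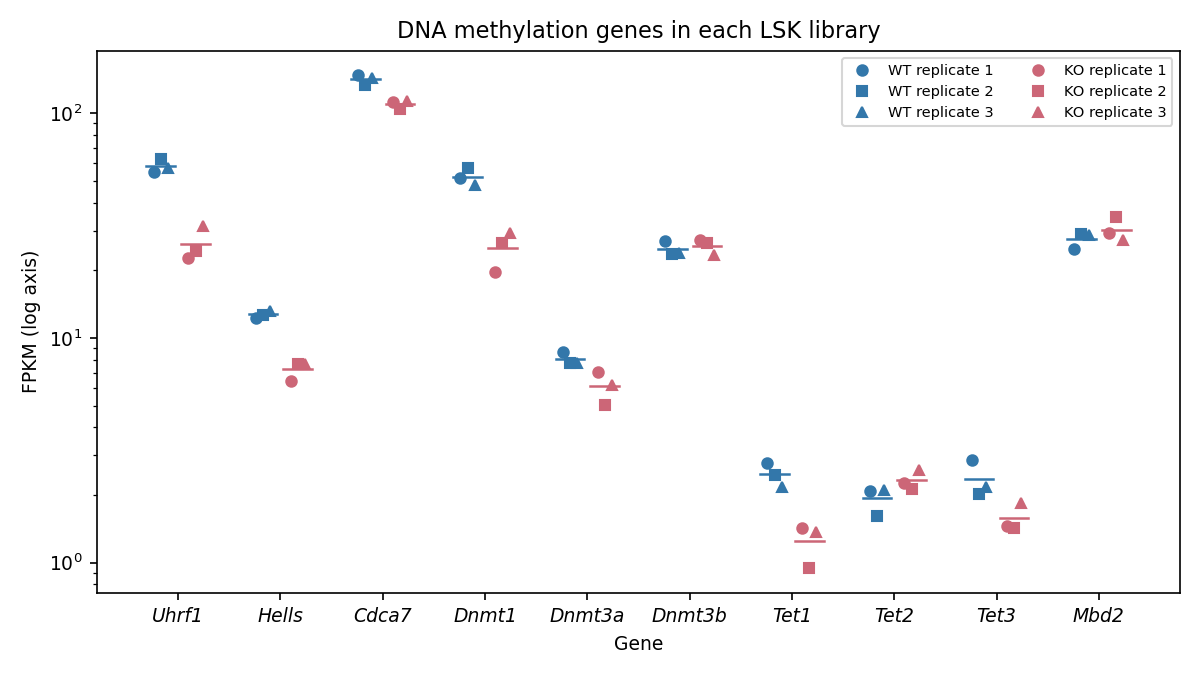
FPKM of the 10 DNA methylation genes (log axis) in each library, with the 3 WT libraries in blue and the 3 KO libraries in red, markers for replicates 1 to 3 and a bar at each group mean. Uhrf1, Dnmt1, Hells and Cdca7 were lower in every KO library than in any WT library, and Dnmt3b and Mbd2 overlapped.

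The promoter sequences of the 4 genes that fell are shown because each gene has a window with a match to a motif of E2F, the transcription factor family that drives genes of DNA replication. The sequences are RefSeq windows (GRCm38.p6, from 250 bases before to 50 bases after an annotated start), 14 windows for 9 of the 10 members. A match lay in 1 of 2 Uhrf1 windows, 1 of 3 Dnmt1 windows and the 1 window each of Hells and Cdca7, and these windows are the ones printed. The motif was searched on both strands as TTTCCCGC, TTTGGCGC, TTTCGCGC and TTTGCCGC, which cannot overlap one another on the same strand. Capitals mark the matches. Hells and Cdca7 are cut at 30 bases into their first annotated exon, Uhrf1 and Dnmt3b at the start itself, and for Dnmt1 30 bases around its match before the start are given, all 30 of them exonic in GENCODE M21. Dnmt3b, which was not called, is shown for comparison and holds no match.
Uhrf1, chr17:56304063-56304312, plus strand: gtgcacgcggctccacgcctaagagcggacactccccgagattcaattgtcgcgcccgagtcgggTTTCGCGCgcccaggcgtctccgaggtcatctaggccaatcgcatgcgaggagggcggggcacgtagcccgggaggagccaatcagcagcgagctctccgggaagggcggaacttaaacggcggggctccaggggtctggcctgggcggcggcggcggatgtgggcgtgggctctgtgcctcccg
Hells, chr19:38930740-38930944, plus strand: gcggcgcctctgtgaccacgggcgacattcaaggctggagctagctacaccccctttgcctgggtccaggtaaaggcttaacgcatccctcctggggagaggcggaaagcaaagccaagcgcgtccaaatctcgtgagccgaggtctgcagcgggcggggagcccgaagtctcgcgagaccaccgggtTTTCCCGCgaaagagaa
Cdca7, chr2:72475969-72476188, plus strand: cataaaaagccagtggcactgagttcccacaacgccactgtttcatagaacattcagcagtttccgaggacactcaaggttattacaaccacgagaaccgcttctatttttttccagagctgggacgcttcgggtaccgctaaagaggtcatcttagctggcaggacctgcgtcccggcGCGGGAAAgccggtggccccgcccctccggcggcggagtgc
Dnmt1, chr9:20952824-20952853, minus strand: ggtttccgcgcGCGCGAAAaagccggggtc
Dnmt3b, chr2:153649199-153649448, plus strand: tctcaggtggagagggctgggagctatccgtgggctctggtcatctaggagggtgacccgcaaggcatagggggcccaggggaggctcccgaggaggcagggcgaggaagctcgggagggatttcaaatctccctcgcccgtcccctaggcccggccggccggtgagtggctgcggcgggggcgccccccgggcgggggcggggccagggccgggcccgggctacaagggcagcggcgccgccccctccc

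The Uhrf1 match began 185 bases, the Hells match 62 bases and the Cdca7 match 71 bases before the RefSeq start. Dnmt1 held 1 match 219 bases before the start that the printed stretch belongs to and another at base 34 after it. The windows of Dnmt3a, Dnmt3b, Tet1, Tet2 and Tet3 held none. A match was present in 2.26% of all 32851 windows, in a window of 4.98% of the 8065 tested genes with windows, and in a window of 10.8% of the 462 such genes called lower in KO. The windows were also counted for CpG, the dinucleotide that these enzymes act on. The windows with a match held 33 (Uhrf1), 34 (Hells), 33 (Dnmt1) and 26 (Cdca7) CpG, and the windows without a match held 12 (Uhrf1), 2 and 12 (Dnmt1), 46, 47 and 18 (Dnmt3a), 30 (Dnmt3b), 17 (Tet1), 57 (Tet2) and 22 (Tet3). The ranges of windows with and without a match overlapped. The median over all windows was 7 CpG, and over windows of tested genes 21.

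Depth and labels bear on every value below. The libraries held 5207595 to 7097020 whole reads, worked out from the FPKM values. Uhrf1, Hells, Dnmt1, Cdca7, Dnmt3a, Dnmt3b and Mbd2 had between 300 and 2942 reads in each library, and the Tet genes 87 to 256. At 87 reads counting error alone is 10.7%. The gene length implied by the values equals the exon length in GENCODE M21 for 6 members and is shorter for Dnmt1, Tet1, Tet2 and Tet3. Drd2 was listed at 0 in all 6 libraries, and Drd3 at 0 in WT and at 1.62, 3.08 and 3.04 FPKM in KO replicates 1 to 3. Drd3 RNA was thus found only in the libraries labelled as its knockout. The labels do not say which parts of the gene the alleles lack, and the cause was not tested. The Y-linked gene Ddx3y was at 12.5 to 13.9 FPKM in WT and 15.1 in KO replicate 2, and at 0 in KO replicates 1 and 3, so sex was not balanced between the groups. Sex and genotype can be compared apart only through KO replicate 2. Whether each replicate was its own animal is not stated, and the p-values describe the spread among these 6 libraries. The gate's own genes were present in every library: Kit ran from 82.5 to 149.6 FPKM and Ly6a, which encodes Sca1, from 110 to 161 FPKM, and neither was called.

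Uhrf1 (chromosome 17, 56303321 to 56323486, plus strand) encodes the reader of hemimethylated CpG that recruits DNMT1. It was at 54.9, 62.2 and 56.8 FPKM in WT replicates 1 to 3 and at 22.6, 24.3 and 31.4 FPKM in KO replicates 1 to 3. The highest KO library, replicate 3, lay well below the lowest WT library. On the log2(FPKM + 1) scale it differed by -1.13 ± 0.13 (SE), with a limma adjusted p of 0.00164, and 67 of the 11371 tested genes had a smaller p. Uhrf1 stayed called, and lower, under all 17 alternatives (adjusted p from 0.000151 to 0.0179). In KO replicate 2, the KO library with Y-linked transcripts, it was also lower than in any WT library.

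Dnmt1 (chromosome 9, 20907209 to 20959888, minus strand), the maintenance methyltransferase, was at 51.3, 57.2 and 47.9 FPKM in WT and at 19.7, 26.5 and 29.3 FPKM in KO. As for Uhrf1, KO replicate 1 was lowest, KO replicate 3 was highest among KO, and WT replicate 2 was highest of all. The difference was -1.04 ± 0.15 SE (limma adjusted p = 0.00400). With a term for Y-linked transcripts it was -0.95 (adjusted p = 0.0564), and it was called under the other 16 alternatives, where the adjusted p was at most 0.0301.

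Hells (chromosome 19, 38930915 to 38971051, plus strand), the chromatin remodeller also known as LSH, was at 12.2, 12.7 and 13.2 FPKM in WT and at 6.44, 7.61 and 7.67 FPKM in KO. The 3 libraries of each group lay close together, and the groups were apart. The difference was -0.74 ± 0.13 SE (limma adjusted p = 0.00929). Hells lost its call without WT replicate 2 (adjusted p = 0.0522), with KO replicates 1 and 3 left out together (0.0664) and when Y-linked transcripts were a term of the fit (0.0929), and its direction held under all 17 alternatives (0.00180 to 0.0929).

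Cdca7 (chromosome 2, 72476159 to 72486893, plus strand), which activates HELLS and is a target of E2F and Myc, was the most abundant of the 10 genes in both groups. It was at 147, 133 and 144 FPKM in WT and at 112, 105 and 113 FPKM in KO. Every KO library was below every WT library. The difference was the smallest of the 4 that passed, at -0.36 ± 0.09 SE (limma adjusted p = 0.0331). The call was lost in 10 of the 17 alternatives, and the direction was kept under all 17 (adjusted p from 0.0192 to 0.121). Among the 10 were those with WT replicate 1, 2 or 3 or KO replicate 1 or 2 left out (adjusted p = 0.121, 0.0859, 0.121, 0.0624 and 0.0790).

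Among the writers, Dnmt3a (chromosome 12, 3806007 to 3914443, plus strand) was at 8.63, 7.71 and 7.76 FPKM in WT and at 7.03, 5.04 and 6.18 FPKM in KO. Each KO library was below each WT library, but the difference of -0.36 did not pass (95% interval -0.70 to -0.01, limma adjusted p = 0.165). Dnmt3b (chromosome 2, 153649450 to 153687730, plus strand) was at 27.0, 23.7 and 24.0 FPKM in WT and at 27.3, 26.4 and 23.5 FPKM in KO. These values overlapped, and the 95% interval of the difference ran from -0.21 to 0.29 around 0.04 (adjusted p = 0.839). That interval does not hold the differences found for Uhrf1, Dnmt1 or Hells. The kit does not mark strand, and 133 exon bases of Dnmt3a are shared with the antisense gene Dnmt3aos, whose reads cannot be told from those of Dnmt3a there.

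**Figure D2:**
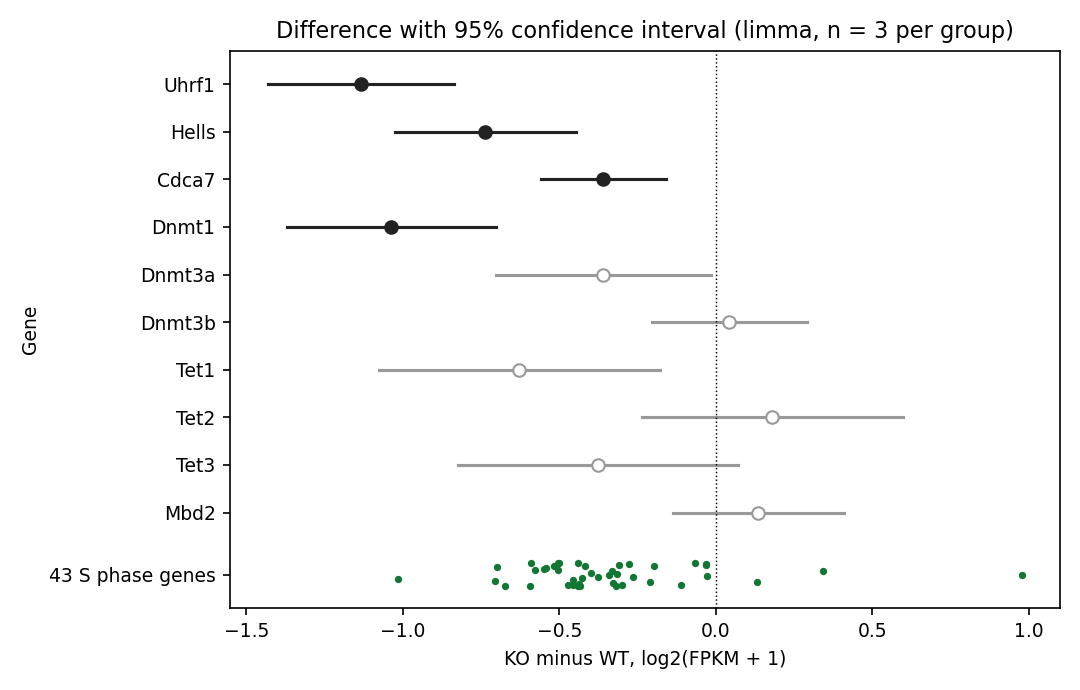
KO minus WT difference in log2(FPKM + 1) for each gene, with its 95% confidence interval from limma (n = 3 per group), filled points marking genes called at an adjusted p under 0.05 and green points giving 43 S phase genes (spread vertically for legibility). On this scale Uhrf1 at -1.13 and Dnmt1 at -1.04 lie to the left of every S phase gene, and Dnmt3b at 0.04 lies near 0. The added 1 shrinks the differences of low genes.

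The erasure genes were low, and limma called none of them. Tet1 (chromosome 10, 62804570 to 62908996, minus strand) was at 2.79, 2.45 and 2.17 FPKM in WT and at 1.43, 0.944 and 1.37 FPKM in KO. All KO libraries were below all WT libraries, from 199 to 256 reads in WT and 96 to 152 reads in KO. The ratio of WT to KO mean FPKM was 1.98, close to that of Dnmt1, but the difference in log2(FPKM + 1), -0.63 ± 0.20 SE, missed the threshold (limma adjusted p = 0.0759). On recovered reads, with no pseudocount of 1 FPKM, limma's voom gave -1.003 ± 0.208 SE and called it (adjusted p = 0.00776), and Tet1 was also called when no mean-variance trend was fitted (adjusted p = 0.0367). Across its alternatives the adjusted p ran from 0.00776 to 0.215.

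Tet2 (chromosome 3, 133463679 to 133545139, minus strand) was at 2.08, 1.62 and 2.11 FPKM in WT and at 2.26, 2.13 and 2.57 FPKM in KO. It was the only member with every KO library above every WT library. The highest WT value, 2.11 FPKM, lay just below the lowest KO value, 2.13 FPKM. This gap is smaller than counting error at the 87 to 150 reads of Tet2 per library. The difference of 0.18 did not pass (95% interval -0.24 to 0.60, limma adjusted p = 0.572). Tet3 (chromosome 6, 83362373 to 83459084, minus strand) was at 2.88, 2.02 and 2.17 FPKM in WT and at 1.45, 1.42 and 1.85 FPKM in KO. Its groups were apart, with WT replicate 1 well above the other WT libraries, and the difference of -0.38 did not pass (-0.82 to 0.07, adjusted p = 0.256).

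Mbd2 (chromosome 18, 70568189 to 70626131, plus strand), the methyl-CpG reader, was at 24.8, 28.9 and 28.6 FPKM in WT and at 29.2, 34.4 and 27.2 FPKM in KO. The groups overlapped, and the difference was 0.13 (95% interval -0.14 to 0.41, limma adjusted p = 0.512).

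The order of the levels within a group changed with these differences. In WT the mean FPKM fell from Cdca7 (141) through Uhrf1 (58.0), Dnmt1 (52.1), Mbd2 (27.4), Dnmt3b (24.9), Hells (12.7), Dnmt3a (8.03), Tet1 (2.47) and Tet3 (2.35) to Tet2 (1.93). Uhrf1 overlapped Dnmt1 in WT, Mbd2 overlapped Dnmt3b, and Tet3 overlapped both Tet1 and Tet2, while every Tet1 value (2.17 FPKM or more) was above every Tet2 value (2.11 FPKM or less). In KO the order was Cdca7 (109.8), Mbd2 (30.3), Uhrf1 (26.1), Dnmt3b (25.7), Dnmt1 (25.2), Hells (7.24), Dnmt3a (6.08), Tet2 (2.32), Tet3 (1.57) and Tet1 (1.25). There Mbd2, Uhrf1, Dnmt3b and Dnmt1 all overlapped each other. Uhrf1 and Dnmt1, above Dnmt3b in every WT library, thus stood at its level in KO. Hells also overlapped Dnmt3a in KO, and Tet3 overlapped Tet1. Tet2, the lowest of the Tet genes by mean FPKM in WT, was the highest in each KO library. Orders between genes depend on the authors' gene lengths. The length implied for Tet2 was 9179 bases, against 16870 exon bases in GENCODE M21, and that for Tet1 14710 against 15457.

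Among the DNA methyltransferase genes, the share of Dnmt1 was lower, and that of Dnmt3b higher, in every KO library than in any WT library. Dnmt1 made up 59.0, 64.5 and 60.2% of the summed Dnmt1, Dnmt3a and Dnmt3b FPKM in WT and 36.5, 45.7 and 49.7% in KO. The share of Dnmt3b was 31.1, 26.8 and 30.1% in WT and 50.5, 45.6 and 39.8% in KO. In KO replicates 1 and 2 Dnmt3b was near to or above Dnmt1, and in KO replicate 3 and all WT libraries Dnmt1 was ahead. The Dnmt3a share overlapped between the groups, at 8.70 to 9.93% and 8.71 to 13.0%. The sum of these 3 genes was 79.6 to 88.6 FPKM in WT and 54.0 to 59.0 FPKM in KO.

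Within the Tet genes, the Tet2 share was 26.8, 26.6 and 32.8% in WT and 44.0, 47.3 and 44.5% in KO, and the Tet1 share was 36.0, 40.3 and 33.6% in WT and 27.8, 21.0 and 23.6% in KO. Both shares were apart between the groups. With 3 libraries against 3, an exact two-sided permutation test of a single share cannot give a p below 0.10, so these shares are descriptions. Shares between genes depend on the authors' gene lengths, which for Dnmt1 and the Tet genes are shorter than the exon lengths in GENCODE M21.

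**Figure D3:**
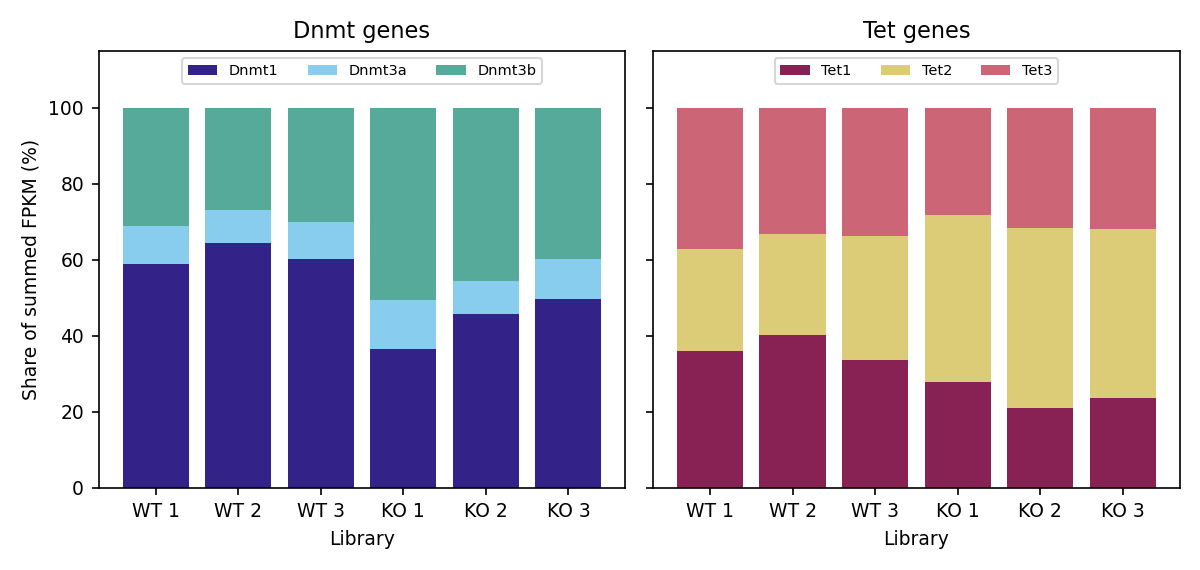
Share in percent of each gene in the summed FPKM of the Dnmt genes (left) and of the Tet genes (right), 1 stacked bar per library. The Dnmt1 share is 59.0 to 64.5% in WT and 36.5 to 49.7% in KO, and the Tet2 share is 26.6 to 32.8% in WT and 44.0 to 47.3% in KO.

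Uhrf1, Hells, Dnmt1 and Cdca7 are known to be expressed most in cells that replicate DNA, so their levels were set beside those of replication genes. Of 43 S phase genes, none of them a member, 12 fell and none rose, with a median of -0.42, and 29 were apart and lower (29 lower and 1 higher at an unadjusted p under 0.05; 18 and 1 by voom). Examples were the histone chaperone Chaf1a, the polymerase gene Pola1, the helicase gene Mcm7 and the ligase gene Lig1, which fell by 0.70, 1.02, 0.54 and 0.60 on the log2(FPKM + 1) scale. Of 24 genes of the G2 and M phases, 17 fell and none rose, with a median of -0.61 (21 and 0 unadjusted; 19 and 0 by voom). Without WT replicates 1, 2 and 3, 6, 2 and 3 of the S phase genes and 9, 4 and 5 of the G2 and M phase genes fell, and 6 and 10 did without KO replicate 1. With KO replicates 1 and 3, which lack Y-linked transcripts, left out, 1 and 4 fell, and the contrast then rests on 1 KO library.

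On the log2(FPKM + 1) scale Uhrf1 and Dnmt1 had larger falls than each of the 43 S phase genes, whose lowest value was -1.02 (Pola1). This order depends on the added 1, which shrinks the differences of low genes. As ratios of mean FPKM, Pola1 fell 2.21-fold, between Dnmt1 (2.07-fold) and Uhrf1 (2.22-fold). With 0.1 FPKM added instead, Pola1 differed by -1.14 and Dnmt1 by -1.06. On the log2(FPKM + 1) scale only Pola1 was below Hells, while 24 of the 43 were below Cdca7. As a ratio of mean FPKM, Mcm10 (named after its value was seen) fell 1.759-fold, slightly more than Hells (1.754-fold). Among the 24 genes of the G2 and M phases, falls as large were present on the log2(FPKM + 1) scale. The proliferation marker Mki67 (-1.10, named after its value was seen), the condensin gene Ncapd2 (-1.08) and the topoisomerase gene Top2a (-1.04) were at or below Dnmt1. On this scale 0 of the 24 were below Uhrf1, and 8 were below Hells. As a ratio of mean FPKM, Mki67 fell 2.73-fold, more than Uhrf1 (2.22-fold). The mean log2(FPKM + 1) of the 43 genes was 4.99, 5.08 and 5.12 in WT and 4.71, 4.87 and 4.58 in KO. Relative to this mean in the same library, Uhrf1 stood at 0.82, 0.90 and 0.73 in WT and at -0.15, -0.21 and 0.44 in KO. Dnmt1 stood at 0.72, 0.78 and 0.49 in WT and at -0.33, -0.10 and 0.34 in KO. Hells was also apart and lower on this relative scale, and Dnmt3b, Tet2 and Mbd2 were apart and higher. The S phase mean itself differed by -0.343, so a gene at a like level in both groups rises on this scale. On their own values Dnmt3b and Mbd2 overlapped between the groups. Cdca7 overlapped, with group means of 2.09 and 2.07. The KO libraries did not follow the S phase mean in order: KO replicate 3 had the lowest S phase mean and the highest Uhrf1 and Dnmt1 of the 3. Hells was at nearly the same level in KO replicates 2 and 3, at 7.61 and 7.67 FPKM.

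**Figure D4:**
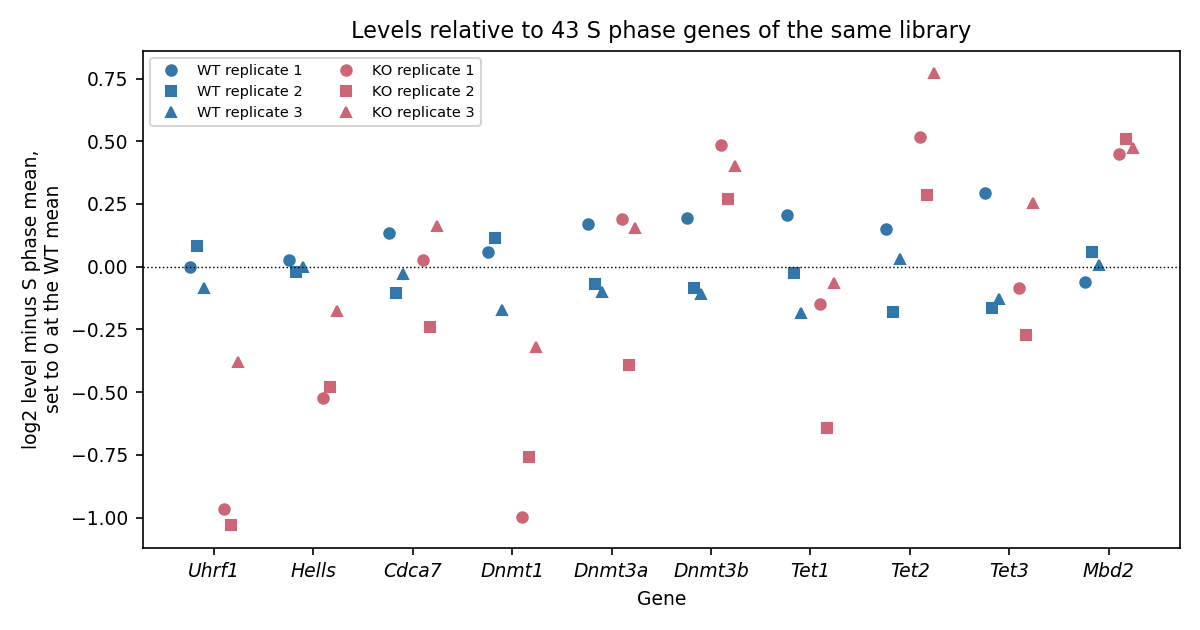
Level of each gene in log2(FPKM + 1) minus the mean of 43 S phase genes in the same library, set to 0 at the mean of the 3 WT libraries (blue), with the 3 KO libraries in red. On this scale the KO libraries of Uhrf1, Dnmt1 and Hells lie below those of WT, those of Dnmt3b, Tet2 and Mbd2 lie above, and those of Cdca7 overlap WT. The S phase mean that is subtracted was itself lower in KO.

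The genes whose levels over the 6 libraries were most like those of a called member were sought among 6978 others. For Uhrf1 they were the condensin gene Ncapd2, the phosphatase regulator Ppp1r10 and Coro2a, with root mean square differences of 0.0702, 0.0799 and 0.0967 on the centred log2 scale. For Dnmt1 they were Topbp1, a scaffold of replication and checkpoint signalling (0.083), the integrin gene Itgal (0.0966) and Ppp1r10 again (0.101). For Hells they were Rangap1 (0.0405), the mitotic kinesin Kif23 (0.0556) and Ttc37 (0.0626), and for Cdca7 Map7 (0.0384), Zdhhc3 (0.041) and the GTPase gene Rhoa (0.0431). These likenesses include the difference between the groups, which the members share with all genes that fell.

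Other genes of the pathway are given beside the 10.9% of all tested genes that were called, 5.43% lower and 5.48% higher, and the difference from these shares was not tested. Of 14 tested partners of maintenance and writing, including suppliers of methyl donor, 1 fell and none rose, with a median of -0.25 (5 lower and 2 higher at an unadjusted p under 0.05; 1 and 1 by voom), and 6 were apart and lower and 1 apart and higher, where 16.6% and 16.2% of all tested genes were. The gene that fell was Ahcy, the hydrolase that clears the by-product S-adenosylhomocysteine, which inhibits methyltransferases. Ahcy was at 20.1, 21.0 and 23.3 FPKM in WT and 12.7, 15.3 and 12.7 FPKM in KO (-0.63 ± 0.12 SE, limma adjusted p = 0.0139), and it missed the threshold without WT replicate 2 or 3 (adjusted p = 0.0644 and 0.0678). Across the alternatives run for Ahcy the adjusted p lay between 0.00811 and 0.149. Of 6 tested other readers of methylated DNA limma called none, with a median of -0.10 (0 at an unadjusted p under 0.05 and 0 by voom), and 1 was apart and lower. Of 14 tested erasure and repair genes, 2 fell and none rose, with a median of -0.09 (4 lower and 2 higher unadjusted; 3 and 0 by voom), and 4 were apart and lower and 1 apart and higher.

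The 2 were Parp1, the poly(ADP-ribose) polymerase of strand break repair, and Gadd45b, a stress-induced gene linked to demethylation. Parp1 was at 95.03, 104.6 and 94.98 FPKM in WT and 77.3, 76.3 and 71.1 FPKM in KO (limma adjusted p = 0.0277). It lost its call in 9 of 17 alternatives (adjusted p from 0.0161 to 0.162 over all 17). Among the 9 were those without WT replicate 1, 2 or 3 or KO replicate 1 or 2 (adjusted p = 0.0777, 0.136, 0.0837, 0.0508 and 0.0514). Gadd45b was at 85.8, 114 and 110 FPKM in WT and 67.7, 65.6 and 38.6 FPKM in KO (limma adjusted p = 0.0280). Its call was lost in 6 of 17 alternatives, among them those without WT replicate 2 or 3 (adjusted p = 0.120 and 0.0959, with a range of 0.0109 to 0.252 across all alternatives). Gadd45a and Gadd45g of the same list, named after their values were seen, went the other way. They differed by 0.55 and 0.68 and were not called (limma adjusted p = 0.119 and 0.0944). With KO replicates 1 and 3 left out together, limma called 0 of Ahcy, Parp1 and Gadd45b.

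Germline genes that are known to be silenced by promoter methylation in body cells were also examined. Of 15, 10 were listed at 0 in all 6 libraries and 4 more reached at most 0.267 FPKM. The exception was Ddx4, which encodes the germ cell helicase VASA, at 8.26, 6.11 and 8.93 FPKM in WT and at 1.26, 2.34 and 3.62 FPKM in KO (147, 102 and 159 reads against 26, 46 and 56). In log2(FPKM + 1) it fell by 1.41 ± 0.26 SE (limma adjusted p = 0.0116). The call was lost without WT replicate 1 or 3 (adjusted p = 0.0508 and 0.0522; 0.00366 to 0.102 over its alternatives). DNA methylation itself was not measured.

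Genes that mark different cells within the gate also differed between the groups. Flt3 and Cd34, genes of multipotent progenitors, fell by 1.22 and 0.72 on the log2(FPKM + 1) scale, and Slamf1 and Procr, genes of stem cells, rose by 2.01 and 0.70. In bulk RNA, fewer cells of a type and less RNA per cell cannot be told apart, and the part of this shift in the fall of Uhrf1, Dnmt1, Hells and Cdca7 was not tested. Of 10 tested erythroid markers 5 rose, and the summed FPKM of the list was 1595 to 2068 in WT and 2644 to 4564 in KO. Of 8 tested mast cell markers 3 rose (56.7 to 93.8 against 73.3 to 159 FPKM). Of 9 tested B and plasma cell markers limma called none (3 higher at an unadjusted p under 0.05, 0 by voom), with sums of 132 to 153 against 131 to 3371 FPKM. Of 11 neutrophil markers limma called none (4 lower unadjusted, 3 lower by voom), with sums of 808 to 823 against 556 to 1255 FPKM. Of 3 tested T and NK cell markers 1 fell (356 to 420 against 189 to 297 FPKM, nearly all Nkg7), and of 5 macrophage and dendritic cell markers 1 fell (137 to 197 against 114 to 171 FPKM). The T cell marker Cd3e was at most 0.238 FPKM in any library. In KO replicate 2, where the B and plasma cell sum was 131 FPKM, Uhrf1 was at 24.3 and Dnmt1 at 26.5 FPKM. That library also had the highest erythroid sum, 4564 FPKM. Whether cells of these other types bear on the members' levels was not tested.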

How the data were processed

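The deposited table gives FPKM for 38926 gene symbols in 6 libraries: reads per kilobase of gene, scaled for sequencing depth by the authors. Per the submitters' processing notes, the build was mm10 and the tools included DESeq2 1.18.1, HTSeq 0.6.1, TopHat2 2.1.1 and bcl2fastq 2.19.1.403, with no role stated. The annotation was not stated there.

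KO was compared with WT in limma 3.58.1 under R 4.3.3, using lmFit and then eBayes with its trend option. The values were log2(FPKM + 1), and the 11371 genes whose mean over the 6 libraries was 1 FPKM or more were tested. All p-values are two-sided and adjusted by Benjamini-Hochberg over these 11371 genes, and "called" means an adjusted p below 0.05. The added 1 shrinks the differences of low genes. Reads were recovered as the smallest whole numbers in the ratio of a gene's FPKM values, after 1 divisor per library (relative tolerance 1e-09), in all 17183 genes above 0 in at least 2 libraries. A common factor may be missing in genes of few reads. Python 3.11.15, numpy 2.4.6, pandas 2.3.3 and matplotlib 3.10.9 were used.

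The members and lists were chosen with earlier results of these data known. All 10 members are named, with up to 4 called genes of each other list by smallest p (those of the cell type lists are given as counts) and, for each called member, the 3 protein-coding genes of at least 5 FPKM nearest in their centred log2 profile over the 6 libraries by root mean square difference. The alternatives were other pseudocounts, filters and scaling, no trend, array weights, a replicate block, each library left out, a term for Y-linked transcripts, the KO libraries that lack these left out and, chosen after the data were seen, limma's voom on the recovered reads. The promoter motifs were also chosen after the values were seen. Values of some genes of the cell type lists are not reported here.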

Additional observations from a re-analysis of the deposited data

How the results depend on the processing

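Uhrf1 kept its call in all 17 alternatives. Each of the 10 members kept its direction in every alternative that tested it. Among members lower in KO, limma called 4. This count was 2 to 4 when 1 library was left out (2 without WT replicate 2, where Hells and Cdca7 were lost), 1 with the term for Y-linked transcripts (Uhrf1) and 2 without KO replicates 1 and 3 (Uhrf1 and Dnmt1). Over all tested genes, 617 lower and 623 higher became 253 and 335 with no filter, 159 and 214 with the Y-linked term, 249 and 265 without KO replicates 1 and 3, and 158 to 834 and 212 to 764 with 1 library left out. The 12 S phase genes called lower became 6 with no filter, 7 with no trend, 1 with the Y-linked term, 1 without KO replicates 1 and 3, and 2 to 15 with 1 library left out. The 17 of the G2 and M phases became 7, 11, 3, 4 and 4 to 16 under these same settings. The 3 other pathway genes called lower became 1 with no trend, 0 with the Y-linked term, 0 without KO replicates 1 and 3, and 0 to 4 with 1 library left out. With no filter, Cdca7 (adjusted p = 0.0577) and Ddx4 (0.0547) missed the threshold, with 19373 genes tested. For Cdca7 with no trend the adjusted p was 0.0887. Ly6a, not called, ranged from -0.0341 (without KO replicate 1, its 1 value below 0) to 0.213 (without KO replicate 3). Without KO replicates 1 and 3, KO replicate 2 is assumed to vary like the WT libraries. At a mean of at least 5 FPKM the Tet genes were not tested. The causes of these changes in the counts were not tested.

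Replicate numbers did not pair the samples: deviations of same-numbered libraries from their group means correlated at -0.03, 0.05 and -0.12 (Pearson's r across the tested genes). With the replicate block, limma called 369 genes lower and 436 higher, 3 members lower (Cdca7 was lost, adjusted p = 0.0774), 8 S phase genes and 11 genes of the G2 and M phases. Depth limits the Tet genes most, at 87 to 256 reads per library.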
